A study of Mus musculus with 16 samples.

Results

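Active chromatin at 9 genes of autophagy and mitophagy was examined in adult cardiomyocytes by chromatin immunoprecipitation and sequencing with an antibody to H3K27Ac, the acetylated form of lysine 27 on histone H3 that is found at promoters and enhancers in use. The genes were Tfeb, a transcription factor of lysosome and autophagy genes; Becn1, a subunit of the lipid kinase complex that starts the membrane; Map1lc3a, Map1lc3b and Gabarapl1, members of the ATG8 family that are attached to the growing membrane; Sqstm1, the p62 receptor that brings ubiquitinated cargo to it; Bnip3 and Bnip3l, receptors on the outer mitochondrial membrane; and Lamp2, a protein of the lysosomal membrane. They were chosen by name, and their peaks were those that the deposited annotation assigned to these 9 symbols, which is the gene with the nearest transcription start. Of 10927 genes with a peak in any H3K27Ac list, 8 were among these 9.

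Autophagy is the route by which a cell encloses its own proteins and organelles in a double membrane and delivers them to the lysosome, and mitophagy is its form for mitochondria. In heart muscle cells, which are packed with mitochondria and seldom divide, this turnover is a main way of clearing damaged mitochondria and misfolded protein. Desmin, the intermediate filament protein of muscle, links the contractile apparatus to mitochondria, the cell membrane and the nucleus, and its absence is known to disturb mitochondria in the heart.

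Cells came from hearts of 3-month-old mice with desmin (Des+/+) or without it (Des-/-), taken either from unstressed animals (basal) or after swimming exercise (swim). The methods describe both genotypes as mice of the same inbred background that also carry a green fluorescent protein transgene under the cardiac myosin heavy chain promoter. Each of the 4 groups had 1 H3K27Ac library and its input (chromatin sequenced without precipitation), made from the pooled chromatin of several mice, so the spread between animals could not be measured and no test between groups was possible. The methods state that animals were used regardless of their sex, and the labels do not give it for a library. A difference below is given with a 95% counting interval, which covers sampling of reads only.

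Basal cells gave 15757 H3K27Ac peaks with desmin and 16638 without it, and swim cells gave 11157 with it and 10407 without it. Where 4 values follow each other below, they stand in this order: basal Des+/+, basal Des-/-, swim Des+/+, swim Des-/-. No peak lower than 15 overlapping reads was listed. Heights are not scaled for depth. Over all genes with a peak near the start in both lists, the median ratio of swim over basal heights was 0.709 in Des+/+ and 0.733 in Des-/-. The Des-/- swim library had the highest input under its peaks, with a median of 5 reads against 3 in each of the other libraries. Markers of cardiomyocytes had a peak for 7 of 8 genes in 3 libraries and for 5 of 8 in Des-/- swim, where Actc1 and Myl2 had none, and Nppa had none in any list. Endothelial markers also had peaks, for 4 to 6 of 6 genes, and Egfl7 was the highest of them at 46 to 83 reads. Fibroblast markers had peaks for 1 of 6 genes in Des+/+ basal, 3 of 6 in Des-/- basal and 0 in both swim lists, and none of the 5 smooth muscle and pericyte or 6 leukocyte markers had any. The summed height of the cardiomyocyte markers was 233, 220, 198 and 115 reads, and that of the endothelial markers was 243, 227, 142 and 131 reads. The part of other cell types in the values of the autophagy genes was not tested.

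Sequences are shown for the 3 promoters on which the results turn and for a region upstream of Bnip3, from RefSeq and its genome sequence of build GRCm38.p6, the build of the peak lists. Each reads 5′ to 3′. The first is the gap of 62 bases between the starts that GENCODE gives for Sqstm1 and for its neighbour Mgat4b on the other strand, chr11:50210828-50210889 on the minus strand. It is shown because the peaks over it were assigned to the neighbour. CpG pairs, of which there are 4, are in capitals, and 79% of its bases were G or C.
Sqstm1 and Mgat4b: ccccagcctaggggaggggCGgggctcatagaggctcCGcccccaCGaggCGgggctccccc
The second is the upstream part of the Map1lc3b promoter, chr8:121590188-121590360 on the plus strand, with its 17 CpG pairs in capitals. Map1lc3b had the highest promoter peaks among those assigned to the 9 genes.
Map1lc3b: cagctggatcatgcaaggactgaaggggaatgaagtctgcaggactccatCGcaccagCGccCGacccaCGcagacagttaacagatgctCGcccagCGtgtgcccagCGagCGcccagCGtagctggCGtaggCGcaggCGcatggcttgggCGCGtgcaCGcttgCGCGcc
The next is the upstream part of the Bnip3 promoter, chr7:138909520-138909756 on the minus strand, with the letters CACGTG in capitals.
Bnip3: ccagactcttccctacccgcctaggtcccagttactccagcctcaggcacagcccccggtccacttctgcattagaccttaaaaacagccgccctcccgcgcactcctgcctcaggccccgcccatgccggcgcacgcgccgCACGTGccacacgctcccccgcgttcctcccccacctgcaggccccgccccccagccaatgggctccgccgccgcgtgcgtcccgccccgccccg
The last is the middle of the region upstream of Bnip3 that all 4 libraries shared, chr7:138919669-138919868 on the plus strand, with the letters ACGTG in capitals.
Bnip3 distal: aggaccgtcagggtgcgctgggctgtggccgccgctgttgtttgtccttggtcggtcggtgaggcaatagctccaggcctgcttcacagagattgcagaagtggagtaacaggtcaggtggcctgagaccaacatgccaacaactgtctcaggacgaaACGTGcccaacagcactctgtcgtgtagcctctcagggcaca

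The promoter table, which holds 250 bases before to 50 bases after each start, had 8 promoters of 6 of the 9 genes, and Map1lc3a, Becn1 and Bnip3l had no entry. Both strands were searched for 4 motifs. The E-box CACGTG, the core of the sites of TFEB and many other factors, was in the Bnip3 promoter, starting 95 bases before the GENCODE start used for distances here (108 before the RefSeq start), and in none of the other member promoters. Over all 32851 promoters 7.15% held it. The longer core TCACGTGA of lysosomal genes was in none of the 8 promoters and in 0.974% of all. The hypoxia response core ACGTG matched the Bnip3 promoter on both strands at the E-box, whose letters contain it, and 19.6% of all promoters held it. The antioxidant response element TGACNNNGC was in the Map1lc3b promoter alone and in 12.4% of all. These are matches of letters and not sites of binding.

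Counted by the assigned symbol, the 9 genes had 12 peaks in basal Des+/+ cells and 15 in basal Des-/- cells, and 11 peaks after swimming in either genotype. A promoter peak, here a peak within 3 kb of a transcription start, was found at 7, 7, 7 and 8 of the 9 genes. Of the peaks, 9, 11, 8 and 8 were promoter peaks and 3, 4, 3 and 3 lay farther away. Peak heights had a median of 31 reads in both basal lists, 25 in Des+/+ swim and 27 in Des-/- swim. The medians of all peaks in those lists were lower, at 23, 23, 20 and 23 reads. Most member peaks were promoter peaks, and the medians of all promoter peaks lay nearer, at 25, 26, 22 and 25 reads. Input heights under the highest promoter peaks ranged from 2 to 7 reads and from 2 to 6 in the basal libraries, from 2 to 5 in Des+/+ swim, and from 3 to 9 in Des-/- swim. The height over input, each plus 1 read, was accordingly 8.67 to 17.3 and 7.43 to 16.4 in the basal libraries and 4 to 9.67 in Des+/+ swim, but 2.75 to 5.88 in Des-/- swim. None of the lamin A/C peaks, which numbered 188, 831, 635 and 536 in the same order, was assigned to any of the 9 genes. Lists this short leave most genes without a peak, so the absence is not particular to these 9. The share of all genes with a lamin A/C peak was not computed.

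By symbol, Sqstm1 seemed to gain a promoter peak with swimming in the absence of desmin, and Gabarapl1 to have none. Sqstm1 had a single peak, chr11:50209721-50210158, of 15 reads over 3 in the input, in Des-/- swim only. Gabarapl1 had no peak in any list. The starts of both genes were nevertheless covered in every library by peaks that the annotation gave to a neighbour on the opposite strand.

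In GENCODE, the start of Sqstm1 lies 63 bp from that of Mgat4b, a glycosyltransferase gene. RefSeq begins Mgat4b farther off, at chr11:50225335 against chr11:50210890 in GENCODE, so the start is shared in GENCODE only. The peak over this shared start was assigned to Mgat4b in all 4 lists, for example chr11:50209903-50211709 in Des+/+ basal. Its height was 90 and 95 reads in basal Des+/+ and Des-/- cells, and 52 and 69 reads in the swim libraries of the same genotypes, with 4, 5, 5 and 10 reads in the input. These were the highest peaks at the start of any of the 9 genes in the basal lists and in Des-/- swim, and Map1lc3b was higher in Des+/+ swim with 54 reads. The 15-read peak that carried the name of Sqstm1 lay beside the 69-read peak, farther into the Sqstm1 gene, and overlapped the stretch that the wider peak covered in each of the other 3 lists. A second peak of the pair, in an intron of Mgat4b, had 38, 30, 37 and 23 reads.

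Gabarapl1 shares its promoter with the non-coding gene 1700101I11Rik, whose GENCODE start lies 657 bp away on the opposite strand and inside Gabarapl1. RefSeq places the start of that gene nearer, at chr6:129533284 against chr6:129533817 in GENCODE. Peaks over the Gabarapl1 start had 46 and 38 reads in basal Des+/+ and Des-/- cells, and 37 and 34 reads in the swim libraries, with 2, 4, 3 and 6 reads in the input. As unscaled reads, the basal Des+/+ library was the highest and the other 3 lay within 4 reads of each other. One of the peaks was chr6:129532770-129534515 in Des+/+ basal. All were assigned to 1700101I11Rik. Counting any peak within 1 kb of the annotated start, 9 of 9 genes had a peak in each of the 4 lists. Such cases are common, since 16% of the 8550 coding genes with a peak within 1 kb of the start in Des+/+ basal had no promoter peak under their own symbol. The share was 16% of 8970 genes in the other basal list, and 16.8% of 6388 and 16.9% of 6412 in the swim lists with and without desmin.

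**Figure D1:**
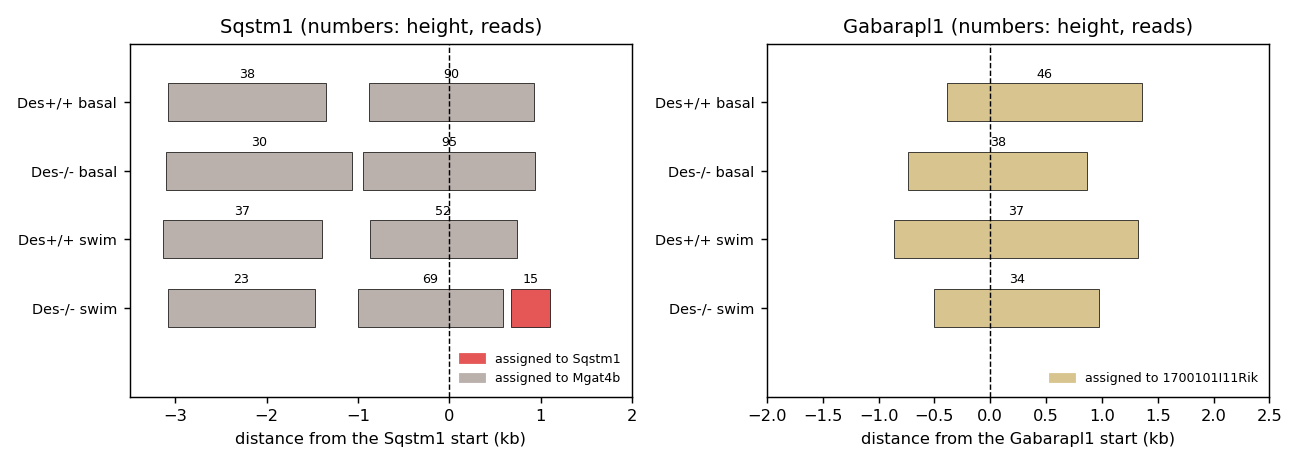
Peaks around the starts of Sqstm1 (left) and Gabarapl1 (right) in the 4 H3K27Ac lists, with distance from the start in kb on the x axis, positive into the gene, and each bar spanning 1 peak, numbered with its height in reads and coloured by the gene it was assigned to. A peak of 52 to 95 reads covers the Sqstm1 start and one of 34 to 46 reads the Gabarapl1 start in every list, and only the 15-read peak in Des-/- swim carries the name of Sqstm1.

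Among the ATG8 genes, Map1lc3b, whose lipidated protein is the usual marker of autophagosomes, had promoter peaks of 78 and 81 reads in basal Des+/+ and Des-/- cells, and of 54 and 53 reads after swimming. The pair of genotypes lay within 3 reads of each other in each condition. Both swim values lay below both basal values, as swim heights did over all genes. These peaks were higher than 97.2%, 96.8%, 96.1% and 93.3% of all peaks of their lists. The peak lay at chr8:121590317-121591497 in Des+/+ basal. The Map1lc3b entry of the promoter table, chr8:121590188-121590487, had a ratio of observed to expected CpG pairs of 0.982. This was higher than in 93.1% of all promoters, whose median was 0.384. Among 5259 genes with a promoter peak in all 4 lists, the 3 with heights most like Map1lc3b were Dynlt2a3, Nr1h2 and Aven. Their distances were 0.08, 0.0989 and 0.118 over the 4 log2 heights. In an intron of Gm20388, at -4871 to -4899 bp from the Map1lc3b start, a second peak had 24 and 25 reads in the basal lists and 16 in Des+/+ swim. Des-/- swim had no peak there, and Des-/- basal had a further one of 15 reads at -4190 bp.

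Map1lc3a, the closest relative of Map1lc3b, had promoter heights of 51 and 75 reads in basal Des+/+ and Des-/- cells, and of 49 and 46 reads after swimming. Without scaling, the Des-/- basal library stood above the other 3, which lay within 5 reads of each other. Input heights were 2, 4, 5 and 7 reads, and the values over input were 17.3, 15.2, 8.33 and 5.88. The peak, chr2:155276327-155278063 in Des+/+ basal, was 1737 bp wide there and 1563 bp in the other basal library, and after swimming 2030 bp with desmin and 884 bp without it. Its width in Des-/- swim was 0.435 of that in Des+/+ swim, where the median over 5410 genes was 1.04 and 2.64% of genes had a lower ratio. Widths did not go 1 way over the members, as in the same comparison the summed promoter width was 1.4 for Tfeb and 1.3 for Bnip3l, 1.09 for Map1lc3b, 0.937 for Lamp2 and 0.566 for Becn1. With swimming in Des+/+ the summed width ratio of Tfeb was 0.318, against a median of 0.789, and 3.69% of genes had a lower one. The sum of 2353 bp in Des+/+ basal held 2 peaks, of 1081 bp at the first start and 1272 bp at a second start farther into the gene. Only the peak at the first start, of 748 bp, was listed in Des+/+ swim.

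**Figure D2:**
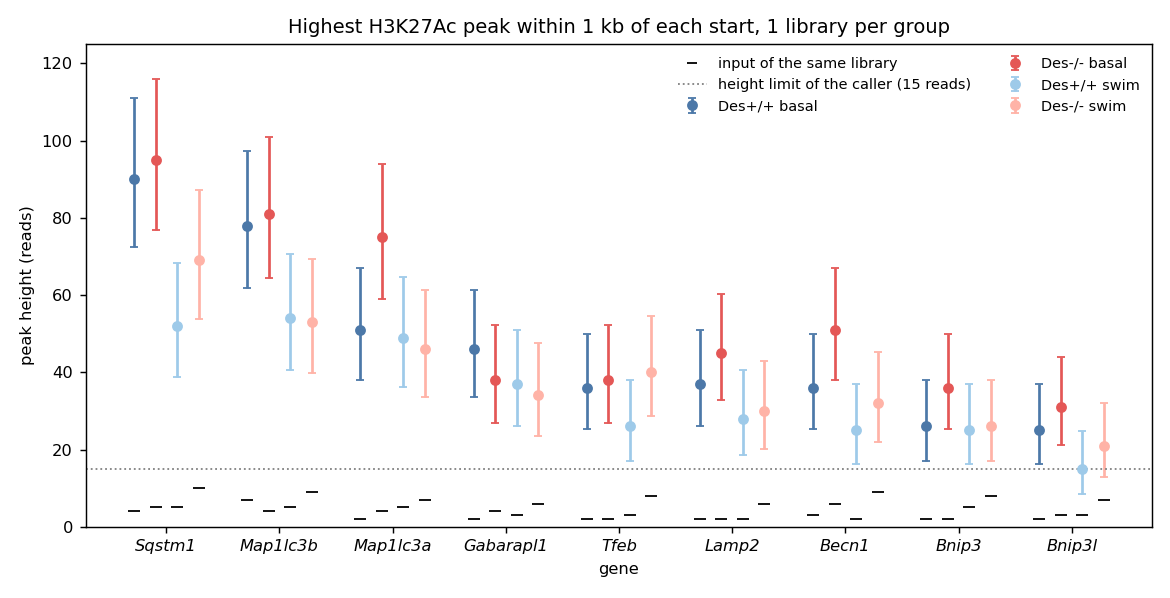
Height in reads of the highest H3K27Ac peak within 1 kb of the start of each gene (x axis) in the 4 libraries, with exact 95% Poisson intervals, the input height as black dashes and the 15-read limit as a dotted line. Each gene has a peak in each library, from 95 reads at Sqstm1 in Des-/- basal to 15 reads at Bnip3l in Des+/+ swim, and the intervals of the 4 libraries overlap for most genes.

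Tfeb had peaks of 36 and 38 reads in basal Des+/+ and Des-/- cells, and of 26 and 40 reads after swimming, at its first start, chr17:47737034-47738114 in Des+/+ basal. In unscaled reads the Des+/+ swim library was the lowest and the other 3 lay within 4 reads of each other. Input heights were 2, 2, 3 and 8 reads. Over input the values were 12.3, 13, 6.75 and 4.56, so that by this measure Des-/- swim was the lowest. Divided by the median ratio over all genes, the height ratio of swim over basal was 1.02 (0.59 to 1.73) in Des+/+ and 1.44 (0.897 to 2.3) in Des-/-. A further start of Tfeb, 25 to 27 kb into the gene, had a peak of 17 reads in Des+/+ basal and of 16 in Des-/- basal, and no peak in either swim list. With a counting interval of 8.4 to 24.7 for a height of 15 reads, a peak that low can drop out of a list without a detectable change.

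Becn1, the Beclin 1 subunit, had promoter heights of 36 and 51 reads in basal Des+/+ and Des-/- cells, and of 25 and 32 reads after swimming, at chr11:101301549-101302396. Des-/- was above Des+/+ in both conditions. Input heights were 3, 6, 2 and 9 reads, so that the input was also higher in Des-/- in both conditions. Lamp2, on the X chromosome, had promoter heights of 37, 45, 28 and 30 reads at chrX:38455699-38456488. Both swim values were below both basal values, as swim heights were over all genes. A peak 16.5 to 16.8 kb before its start had 16 and 20 reads in the basal lists and 17 in Des-/- swim, and was not listed in Des+/+ swim.

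Of the mitophagy receptors, Bnip3l (also called Nix) was the lowest of the 9 genes in each of the 4 libraries when each gene was taken by its highest peak within 1 kb of the start. Heights were 25 and 31 reads in basal Des+/+ and Des-/- cells, and 15 and 21 reads after swimming, at chr14:67008098-67008884. In Des+/+ swim the peak stood at the 15-read limit of the list, and in Des-/- swim its 21 reads stood over 7 in the input.

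Bnip3 had the most peaks of the 9 genes, with 3 and 5 in basal Des+/+ and Des-/- cells and 4 and 3 after swimming. Its promoter peak, chr7:138908940-138910083 in Des+/+ basal, had 26 and 36 reads in basal cells, and 25 and 26 reads after swimming. The highest in unscaled reads was Des-/- basal, and the other 3 lay within 1 read of each other. Peaks in its intron, between 1156 and 2920 bp after the start, had 16 reads with desmin in either condition and 16 and 19 in basal cells without it, and Des-/- swim had none.

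The width of Bnip3 chromatin under promoter peaks differed more than the height. Summed over its promoter peaks it was 1868 and 2878 bp in basal Des+/+ and Des-/- cells, and 2337 and 542 bp after swimming. Des-/- swim was the narrowest. Its width was 0.188 of that in Des-/- basal, where the median over 6183 genes was 0.784 and 0.712% of genes had a lower ratio. It was 0.232 of that in Des+/+ swim, where the median over 5410 genes was 1.04 and 0.388% of genes had a lower ratio. The peaks absent there had 15 to 19 reads, and the promoter peak itself was 806 bp wide in Des-/- basal and 1365 bp in Des+/+ swim. The part of the 15-read limit and of the higher input of Des-/- swim in this width was not tested.

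A distal region of Bnip3 stood out by its presence in all 4 libraries. It had a peak of 36 reads in Des+/+ basal and 36 in Des-/- basal, as high in reads as the promoter peak of the same library or higher. Input was also higher there, at 6 and 5 reads against 2 at the promoter, so that over input the distal region was lower, 5.29 against 9 in Des+/+ basal and 6.17 against 12.3 in Des-/- basal. In the swim lists it was split in a pair of peaks, of 17 and 28 reads in Des+/+ and of 15 and 27 in Des-/-, the higher of which was again above the promoter peak in reads. That peak stood at 7.25 over input in Des+/+ swim, against 4.33 at the promoter, and at 5.6 in Des-/- swim, against 3 at the promoter. The 807 bases common to all 4 lists, chr7:138919365-138920171, begin 9846 bp before the Bnip3 start in a stretch annotated as distal intergenic. The next coding gene on the far side, Jakmip3, starts 20559 bp beyond it. The sequence printed above as Bnip3 distal, the middle 200 bases, held 1 match of ACGTG and none of the E-box. Of 546 distal peaks shared by all 4 lists, measured over the same length, 12.3% held ACGTG and 3.3% the E-box. Assignment to Bnip3 rests on the nearest start alone, and contact with its promoter was not measured in these lists.

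**Figure D3:**
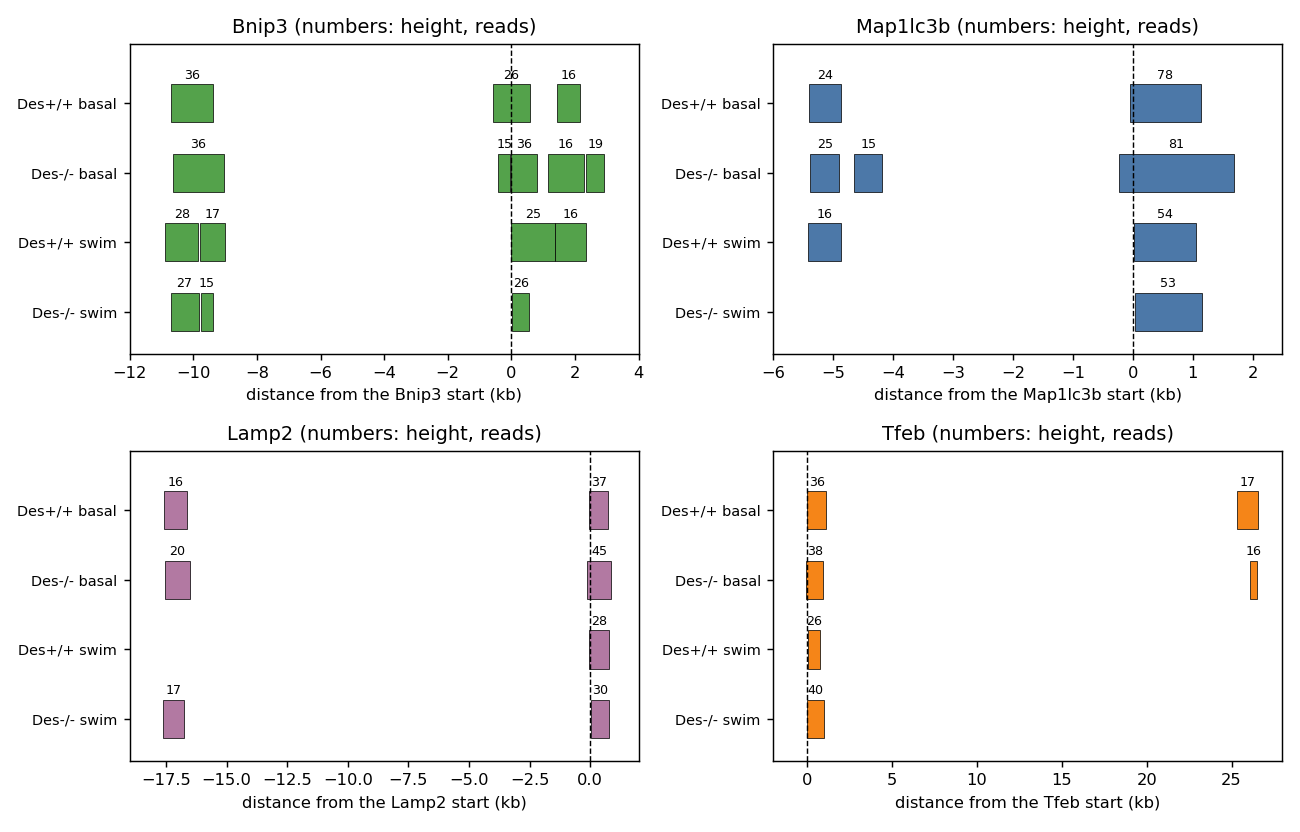
Peaks assigned to Bnip3, Map1lc3b, Lamp2 and Tfeb in the 4 H3K27Ac lists, with distance from the first start in kb on the x axis, positive into the gene, and each bar numbered with the height in reads. The Bnip3 region 9 to 11 kb upstream is in all 4 lists, while the Bnip3 intron peaks and the upstream Map1lc3b peak have no bar in Des-/- swim. The second Tfeb start has no bar in either swim list, and the distal Lamp2 peak has none in Des+/+ swim.

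Promoter heights were then compared between libraries. Each ratio was divided by the median ratio over all genes with a promoter peak in both lists, because swimming lists were lower as a whole, with a median uncentred ratio of 0.709 in Des+/+ and 0.733 in Des-/-, while Des-/- was above Des+/+ by 1.08 in basal cells and by 1.13 in swim cells. By symbol 7 genes could be compared in each case, and a ratio past 1.5-fold was called. None of the 7 was called in any of the 4 comparisons, in either direction.

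Between genotypes in basal cells, 0 of 7 genes were called against a background of 3.01% of 8061 genes called higher and 2.95% lower. Their median centred ratio of Des-/- over Des+/+ was 1.14, with a range of 0.959 to 1.36. Map1lc3a had the largest at 1.36 (0.939 to 1.98), followed by Becn1 at 1.31 (0.837 to 2.06) and Bnip3 at 1.28 (0.751 to 2.2). Each of these intervals included 1. Taken at the start, Gabarapl1 had a ratio of 0.757 (0.479 to 1.19), the lowest of the 9 genes, and Sqstm1 one of 0.968 (0.718 to 1.31).

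Between genotypes in swim cells, 0 of 7 were called, where 3.4% of 5410 genes were called higher and 3.92% lower. The median centred ratio was 0.948, with a range of 0.83 for Map1lc3a to 1.36 for Tfeb by symbol. The interval of the Tfeb ratio was 0.81 to 2.32. At the start, Sqstm1 had a ratio of 1.17 (0.802 to 1.71) and Gabarapl1 one of 0.808 (0.492 to 1.32).

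Swimming in Des+/+ moved 0 of 7 past the limit, where 3.89% of 6227 genes were called higher and 3.02% lower. The median centred ratio of swim over basal was 1.02. Bnip3 at 1.36 (0.751 to 2.44) and Map1lc3a at 1.35 (0.896 to 2.05) were the highest, and Bnip3l at 0.846 (0.415 to 1.67) the lowest by symbol. Sqstm1, taken at the start, was lower still at 0.821 (0.572 to 1.17).

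Swimming in Des-/- moved 0 of 7 past the limit, where 4.21% of 6183 genes were called higher and 2.77% lower. The median centred ratio was 0.909. Tfeb had 1.44 (0.897 to 2.3), the largest ratio of any of these genes, and 93.9% of all genes had a lower one. Map1lc3a had the lowest at 0.836 (0.566 to 1.22). The interval of every member ratio in the 4 comparisons included 1. The widest, of Bnip3l between genotypes in swim cells, ran from 0.609 to 2.58, so that a 1.5-fold change in that gene was not detectable at this depth. By symbol, nearly all other intervals also reached past 1.5-fold in at least 1 direction. The exceptions were those of Map1lc3b between genotypes in basal cells (0.694 to 1.33) and with swimming in Des+/+ (0.677 to 1.4). The absence of calls in the 4 comparisons therefore does not show that heights were unchanged. These comparisons share libraries, and the same value of 75 reads for Map1lc3a in Des-/- basal enters both comparisons that use that library.

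**Figure D4:**
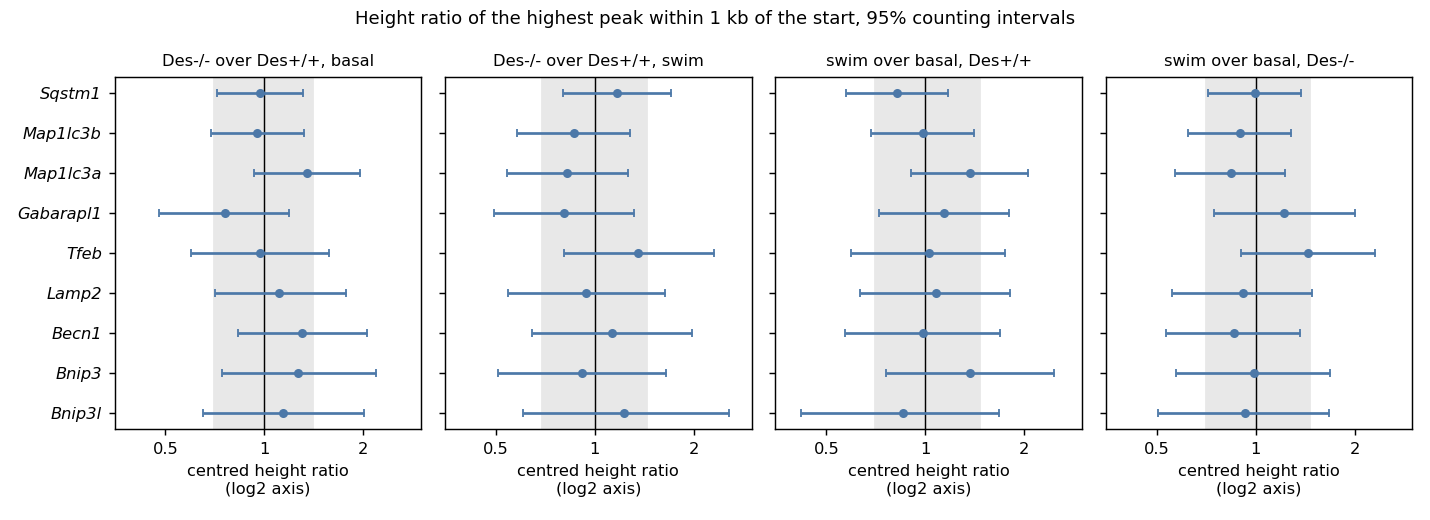
Centred ratio of the highest peak within 1 kb of the start (x axis, log2 scale) for the 9 genes in the 4 comparisons, with 95% counting intervals, and the grey band holding the 5th to 95th percentile of all genes with a promoter peak under their symbol in both lists. All 9 points lie inside the band in each comparison and every interval includes 1.

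Peaks were also compared by position, a partner being a peak of the other list that overlaps by at least 1 bp. Of the 15 peaks in Des-/- basal, 2 had no partner in Des+/+ basal, a Bnip3 intron peak and the Map1lc3b peak at -4190 bp, where 19.7% of all peaks had none. Of the 12 in Des+/+ basal 0 had none in Des-/- basal, against 14.5% of all peaks. Of the 11 in Des-/- swim, 1 had no partner in Des+/+ swim, the Lamp2 distal peak, against 22.2%. Of the 11 in Des+/+ swim, 2 had none in Des-/- swim, the Bnip3 intron peak and the upstream Map1lc3b peak, against 27%.

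Every member peak of a swim list had a partner in the basal list of the same genotype, so that 0 of 11 in Des+/+ and 0 of 11 in Des-/- were without one, against 8.39% and 6.28% of all peaks. In the other direction, 2 of 12 Des+/+ basal peaks had no partner after swimming, the second Tfeb start and the Lamp2 distal peak, against 39% of all. In Des-/- 6 of 15 basal peaks had none, against 44.8% of all. These were the second Tfeb start, 3 Bnip3 peaks and both upstream Map1lc3b peaks. The main peak at the start of each gene had a partner in all other lists.

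The wider pathway was described with a list of 82 further autophagy and lysosome genes, of which 75 had a peak in some list. Promoter peaks were found at 69 and 70 genes in basal Des+/+ and Des-/- cells, at 62 and 63 genes after swimming, and at 56 in all 4 lists. By role, promoter peaks in all 4 lists were found at 17 of 21 genes of initiation, lipid kinase and membrane supply, 6 of 12 of conjugation and the ATG8 family, 14 of 17 cargo and mitophagy receptors and regulators, and 19 of 32 of lysosome, fusion and nutrient sensing. The median centred ratios were 1.01 for genotype in basal cells, 0.98 for genotype in swim cells, 0.952 for swimming in Des+/+ and 0.939 for swimming in Des-/-, over 67, 58, 61 and 62 genes.

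In basal cells 1 of 67 was called higher in Des-/- and 0 lower, against 3.01% and 2.95% of all genes. It was Vmp1, a gene for a membrane protein of autophagosome formation, at 1.53 (0.968 to 2.45). Within 1 kb of its annotated start Vmp1 had 33 and 32 reads, so this ratio came from another peak given to the gene. In swim cells 2 of 58 were called higher in Des-/- and 2 lower, near the 3.4% and 3.92% of all genes. Psap, the precursor of lysosomal saposins, had 1.61 (0.866 to 3.11) and the lipid transfer gene Atg2a 1.57 (0.857 to 2.98). The cargo receptor gene Nbr1 had 0.348 (0.202 to 0.578) and the proton pump gene Atp6v0d1 0.629 (0.401 to 0.978). The size of the Nbr1 value rests on assignment, as its start had peaks of 71, 71, 56 and 42 reads in the 4 lists and by symbol 47, none, 56 and 22. Taken at the start, its ratio was 0.658 (0.43 to 0.999). Atp6v0d1 had 52 reads in Des+/+ swim and 37 in Des-/- swim. The intervals of Nbr1 and Atp6v0d1 were the only 2 of these 58 that did not include 1, with no adjustment for the number of genes.

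With swimming in Des+/+, 2 of 61 were called higher and 2 lower, against 3.89% and 3.02% of all genes. Zfyve1, a gene of the membrane site where autophagosomes start, had 1.67 (0.815 to 3.48) and Nbr1 1.68 (1.12 to 2.53). The Nbr1 call was lost when its peaks were taken at the start, where it had 71 reads in basal and 56 in swim cells and a centred ratio of 1.12 (0.775 to 1.61). The conjugation gene Atg16l1 had 0.638 (0.377 to 1.05) and the kinase gene Tbk1 0.653 (0.389 to 1.07). With swimming in Des-/-, 2 and 2 of 62 were called, against 4.21% and 2.77% of all genes. Zfyve1 had 1.6 (0.798 to 3.26) and Vps18, a subunit of tethering complexes of the lysosome, 1.52 (0.761 to 3.04), while the lipid kinase genes Pik3r4 at 0.594 (0.315 to 1.08) and Uvrag at 0.647 (0.397 to 1.03) were lower. For Zfyve1 the heights were 16, 17, 19 and 20 reads, close to the 15-read limit.

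Some genes of this list had a promoter peak in 1 list of a pair and none in the other. In basal cells 3 of 70 had one in Des-/- alone, Vps11 with 22 reads, Epg5 with 19 and Vps39 with 17, where 11.3% of all genes with a promoter peak in that list did. In Des+/+ alone it was 2 of 69 by symbol, Nbr1 with 47 reads and Calcoco1 with 24, against 6.78%, but the start of Nbr1 had a peak of 71 reads in Des-/- as well. In swim cells 5 of 63 had one in Des-/- alone, against 16.2%, and among them were Gaa at 27 reads, Atg7 at 19, Mcoln1 at 18 and Atg4c at 16. In Des+/+ alone it was 4 of 62, against 16.8%, Atg5 at 21, Stx17 at 17, Atg4b at 16 and Usp30 at 15.

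More genes of the list had a promoter peak in basal cells alone than in swim cells alone, and the same was so over all genes. In Des+/+ 8 of 69 had one in basal cells alone, against 28% of all genes, led by the cathepsin gene Ctsl at 40 reads, the glucosidase gene Gaa at 35, Calcoco1 at 24 and Plekhm1 at 24. In swim cells alone it was 1 of 62, Epg5 at 17, against 4.29%. In Des-/- 8 of 70 had one in basal cells alone, against 32%, led by the fusion gene Stx17 at 34 reads, Ctsl at 29, Atg4b at 27 and Atg5 at 25. The 1 of 63 in swim cells alone, against 4.18%, was Nbr1 at 22 by symbol, whose start had a peak in basal cells too. The lists of swim cells were shorter, and the part of depth in these counts was not tested.

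**Figure D5:**
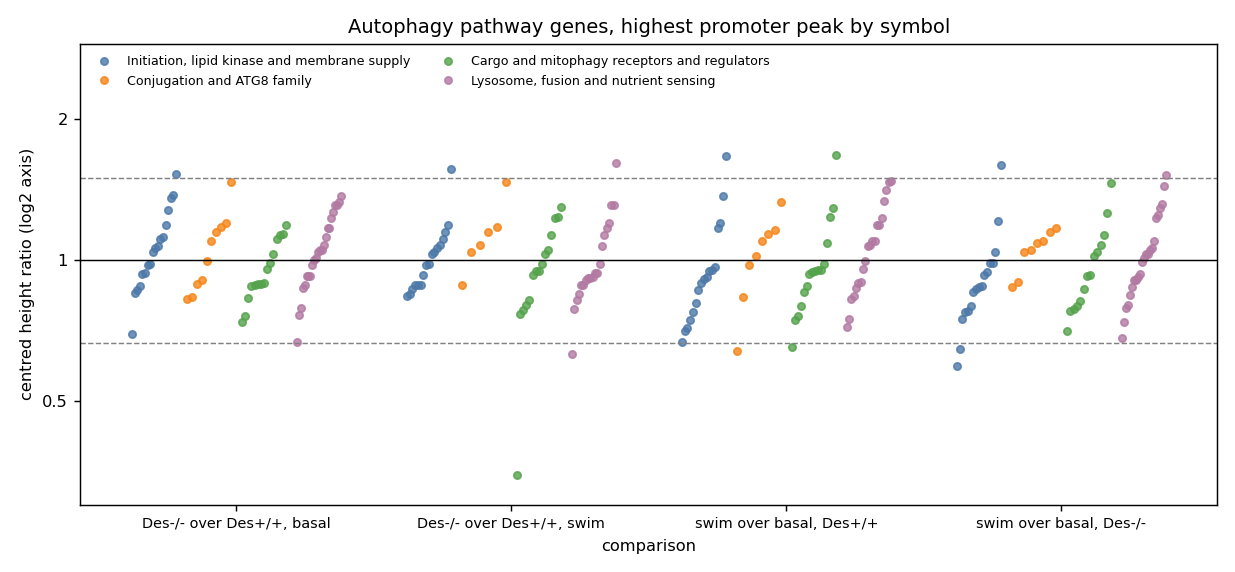
Centred height ratio of the highest promoter peak (y axis, log2 scale) for the further autophagy and lysosome genes in the 4 comparisons, coloured by role and sorted within each role, with dashed lines at 1.5-fold in each direction. Most genes lie between the lines in every comparison, and the lowest point is Nbr1 at 0.348 between genotypes in swim cells.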

How the data were processed

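Per the labels, the authors aligned single-end reads to GRCm38 (mm10) with Bowtie2 2.4.4, handled alignments with SAMtools 1.13, called peaks per library against its input with in-house scripts and annotated them with ChIPseeker 1.36.0. Depth per library is unknown here, since the lists hold peaks only. The deposited height and input height are a coverage signal in reads. The deposited fold is the ratio of both after adding 1, the deposited p-value gives the probability of the height given the input, and the distance to the start was used as the authors' score in bp. None of these is scaled for depth, so each height ratio was centred on its median over all genes. Read duplicates count in a height where they were kept, which is not given in the sources used here.

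Groups and their 4 comparisons follow the labels of the 16 samples. Intervals are exact at 95% (Poisson for a height, Clopper-Pearson for a ratio) and cover counting error only. The call rule was 1.5-fold, and promoters were taken as within 3 kb of a start. Starts came from GENCODE vM21, whose coordinates matched 99.2% to 99.3% of the transcripts in the lists. Python 3.11.15, pandas 2.3.3, numpy 2.4.6, scipy 1.17.1 and pysam 0.24.0 were used, and the scripts were tested on simulated data. All 9 genes were named. Of the 82 pathway genes, at most 4 past the limit in a comparison and at most 4 with a peak on 1 side of a pair, in each direction, were named by size. The 3 genes nearest in pattern were named for the member with the highest promoter peaks. Members and lists were chosen with earlier results of these data known. Counting peaks at the annotated start, also for the pathway genes called, and comparing summed widths were added after seeing the data. The lamin A/C lists were searched for member peaks only.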

Additional observations from a re-analysis of the deposited data

Results flagged for a closer look

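For 4 of the 7 genes compared by symbol, the centred ratio of Des-/- over Des+/+ lay on opposite sides of 1 in basal and swim cells. The share of all genes for which it did was not computed, so this count shows nothing particular to these genes. Each group had 1 library, so the difference was not tested and rests on 4 heights per gene. For Map1lc3a the ratio was 1.36 in basal and 0.83 in swim cells, a ratio of ratios of 0.612 with a 95% counting interval of 0.358 to 1.05, which includes 1. For Tfeb it was 0.974 in basal and 1.36 in swim cells, a ratio of ratios of 1.4 (0.713 to 2.74). For Bnip3 it was 1.28 in basal and 0.92 in swim cells, a ratio of ratios of 0.72 (0.342 to 1.52). For Lamp2 it was 1.12 in basal and 0.948 in swim cells, a ratio of ratios of 0.844 (0.43 to 1.66). Sqstm1, taken at the start, also had values on opposite sides of 1, with 0.968 in basal and 1.17 in swim cells. Its ratio of ratios was 1.21 (0.76 to 1.91).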

How the results depend on the processing

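No paired analysis was possible because each genotype and condition had 1 library. Of 112 member ratios recomputed under 4 alternatives, 105 stayed inside the counting interval of the value reported. For 28 of them, taken at the annotated start, the heights were the same as by symbol, so this result was fixed beforehand. Another 28, without centring, differed by a common factor only. The 7 outside the interval all came from the 28 ratios of height times width, summed over the promoter peaks of a gene. Between genotypes they were Map1lc3b at 1.46 in basal cells, and Map1lc3a at 0.342, Becn1 at 0.606 and Bnip3 at 0.237 in swim cells. For swimming they were Tfeb at 0.587 and Map1lc3a at 2.05 in Des+/+, and Bnip3 at 0.39 in Des-/-. The basal Tfeb value included the peak at its second start, which was not listed in Des+/+ swim. With height times width, member calls became 1 lower in basal cells, 2 higher and 3 lower in swim cells, 3 higher and 2 lower with swimming in Des+/+, and 1 higher and 4 lower with swimming in Des-/-. Background shares rose with it to 13.3% higher and 12.9% lower, 16.7% and 16.5%, 14.9% and 17.6%, and 12.8% and 17.3%. Pathway calls rose to 12 and 7, 13 and 8, 9 and 9, and 8 and 8.

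Without centring, members called were 1 higher between genotypes in swim cells (Tfeb), 1 lower with swimming in Des+/+ and 4 lower in Des-/-. The shares of all genes were then 10.4% higher in swim cells, and 40.1% and 34.2% lower with swimming in Des+/+ and in Des-/-. Pathway calls without centring were 3 higher in basal cells, 1 lower in swim cells, and 0 higher and 26 lower with swimming in each genotype. Of all genes, 6.41% were then called higher in basal cells and 1.42% lower in swim cells. With input subtracted, pathway calls were 2 lower in basal cells, 5 higher in swim cells, and 4 higher and 8 lower with swimming in Des+/+. At 2-fold they were 0 higher in basal cells, 0 higher and 1 lower in swim cells, and 0 in either direction with swimming in each genotype. The share of all genes called was not computed with input subtracted or at 2-fold, so these counts cannot be read as a shift of the pathway.

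With peaks of at least 30 reads, member peaks numbered 6, 8, 2 and 5, and members with any peak or a promoter peak 2 in Des+/+ swim and 5 in Des-/- swim. Peaks without a partner were then 3 in Des-/- swim and 0 in Des+/+ swim against the other genotype, and, against swim, 4 in basal Des+/+ and 3 in basal Des-/- cells. At 20 reads, Des+/+ swim had 7 member peaks, and peaks without a partner were, against the other genotype, 1 in basal Des-/- cells and 0 in Des+/+ swim, and 2 in basal Des-/- cells against swim. With equal numbers of the highest peaks, Des-/- basal had 9 member peaks, of which 0 lacked a partner in Des+/+ basal and 1 in Des-/- swim, while 0 of Des+/+ basal lacked one in Des+/+ swim, and 1 of each swim list lacked one in basal. With an overlap of at least 50% of the shorter peak, 2 peaks of Des-/- swim lacked a partner in Des+/+ swim. Height cuts were applied to both lists of a pair, so a peak can lack a partner because the other fell below the cut. The share of all peaks without a partner was not computed under these settings, so these counts show no difference between groups.

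Taken at the annotated start, an alternative added after seeing the data, the Vmp1 ratio of Des-/- over Des+/+ in basal cells turned from 1.53 to 0.89 (0.53 to 1.49). Nbr1 moved from 0.348 to 0.658 between genotypes in swim cells and from 1.68 to 1.12 with swimming in Des+/+.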
